A study of Mus musculus with 12 samples.

Results

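The 10 genes described here are NF-kB feedback and chemokine genes: Nfkbia, Nfkb1, Nfkb2, Relb, Tnfaip3, Birc3, Icam1, Cxcl1, Cxcl2 and Ccl2. They were chosen by name from 55487 gene identifiers, with symbols matched to the identifiers in the count files. RNA was sequenced from primary mouse hepatocytes, the liver's parenchymal cells, kept in culture, in 4 groups of 3 libraries. Control cells received no pretreatment and no FAC. The FAC group received FAC (not written out in the labels) without a pretreatment. The Lip-1+FAC group was pretreated on day 2 of culture with liproxstatin-1, which the labels call a scavenger of lipid reactive oxygen species (ROS), and then received FAC. The MT+FAC group was pretreated on the same day with Mito-TEMPO, described as a scavenger of mitochondrial ROS, and then received FAC. No group received a scavenger alone, and neither strain, age, dose nor length of exposure is used here. The comparisons address how FAC changed these genes and how far each pretreatment altered their level under FAC.

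As background, NF-kB is a family of dimeric transcription factors that are held in the cytoplasm by inhibitor proteins until signals from cytokine or pattern-recognition receptors lead to the inhibitor's destruction. The freed dimers bind kB sites in DNA and turn on genes of inflammation, survival and cell adhesion. Among their targets are the pathway's own subunits and brakes, which gives the pathway a feedback loop, and chemokines, secreted proteins that draw leukocytes. In the liver, hepatocytes, resident macrophages (Kupffer cells), endothelial cells and stellate cells can all make some of these products.

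All 10 genes passed the filter on low counts, so none was too low to test. Cxcl2 was the lowest, and no control library reached the 0.371 CPM (10 counts in a library of median size) that the filter asks for, whereas all 3 FAC, 2 Lip-1+FAC and 1 MT+FAC libraries did. Levels are given as CPM, gene-assigned counts scaled to library size after TMM normalization. Gene-assigned counts ran from 22991598 to 31683376 per library, except for FAC replicate 2 with 52529278, whose file is marked as combined without saying what was combined. The labels do not say whether replicates came from separate cultures or animals, so p-values measure only the spread between these libraries. The summed level of hepatocyte markers was 16300 to 17400 CPM in control and FAC libraries and 13600 to 15200 CPM in the pretreated ones, and was mostly Alb and Apoa1. With FAC, Alb and Apoa1 did not pass the test, while Cps1 (1695 to 711 CPM on average), Tat (71.0 to 38.5 CPM) and Pck1 (20.6 to 8.95 CPM) fell and Apob rose by 0.40 on the log2 scale. Against FAC, Alb, Apoa1, Ttr and Pck1 fell with both pretreatments, Cps1 rose (0.54 and 0.57), and Hnf4a, Apob and Tat did not pass the test. The 9 lymphocyte and neutrophil markers summed to at most 0.619 CPM, and 6 of them had no count in any library. In bulk RNA, fewer cells of a type and less RNA per cell cannot be told apart.

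With FAC, 7 of the 10 genes rose and none fell. The chemokine genes Cxcl1 (4.07-fold) and Cxcl2 (22.8-fold, from single-digit control counts) rose most, followed by the subunit gene Relb and the chemokine gene Ccl2. The other genes that rose were the subunit genes Nfkb1 and Nfkb2 and the ubiquitin-editing brake Tnfaip3. Nfkbia, Birc3 and Icam1 did not pass the test. A gene was called when its adjusted p was under 0.05 over 13535 genes (edgeR's quasi-likelihood test). Of all tested genes 36.6% were called in FAC against control, 17.5% as higher and 19.1% as lower. All 3 FAC libraries lay above all 3 control libraries for 7 of the 10 genes, and the groups did not overlap for 46.2% of all tested genes. The median log2 fold change was 0.75 over the 10 genes and -0.0061 over all genes tested.

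Cxcl1 and Cxcl2 encode chemokines that attract neutrophils through the receptor CXCR2, and lie next to each other on chromosome 5. In GRCm38, Cxcl1 (ENSMUSG00000029380) spans 90891241 to 90893115 and Cxcl2 (ENSMUSG00000058427) spans 90903871 to 90905938, both on the plus strand. Cxcl2 begins 10756 bases after the last base of Cxcl1. Cxcl1 stood at 4.06, 4.54 and 4.54 CPM in control replicates 1 to 3 and at 19.8, 20.2 and 13.4 CPM in FAC replicates 1 to 3. Each FAC library lay above each control library, and FAC replicate 3 was the lowest of the FAC libraries. The log2 fold change was 2.02 (SE 0.19, adjusted p = 3.71e-07, n = 3 per group). Cxcl2 was nearly silent in control cells, with 7, 4 and 7 counts (0.242 ± 0.0802 CPM, SD, n = 3). FAC replicates held 184, 345 and 80 Cxcl2 counts, or 6.72, 6.61 and 3.23 CPM. The groups did not overlap, and FAC replicate 3 was again the lowest of its group. The Cxcl2 log2 fold change was 4.51 (SE 0.396, adjusted p = 1.41e-07), and its size rests on single-digit control counts.

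The stretches just upstream of 3 genes are shown because each holds a match to the NF-kB consensus, drawn in capitals. They are the 150 bases before the annotated gene, 5′ to 3′ on the gene's strand, from RefSeq promoters of GRCm38.p6.
Cxcl1, plus strand, chr5:90891091-90891240: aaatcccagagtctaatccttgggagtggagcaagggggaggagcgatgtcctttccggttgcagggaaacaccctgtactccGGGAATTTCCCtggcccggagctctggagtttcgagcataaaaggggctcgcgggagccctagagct
Cxcl2, plus strand, chr5:90903721-90903870: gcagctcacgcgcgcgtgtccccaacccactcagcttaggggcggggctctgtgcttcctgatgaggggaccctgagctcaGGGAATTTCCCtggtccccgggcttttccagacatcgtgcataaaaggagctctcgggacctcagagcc
Nfkbia, minus strand, chr12:55492648-55492797: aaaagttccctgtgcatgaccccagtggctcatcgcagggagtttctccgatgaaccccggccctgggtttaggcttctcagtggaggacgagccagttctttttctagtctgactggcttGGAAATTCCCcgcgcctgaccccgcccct
Cxcl1 and Cxcl2 carry the same 11 letters, in which 1 match on each strand overlaps. In Cxcl1 they begin 71 bases before the RefSeq start and in Cxcl2 97 bases before it, whereas the Nfkbia match begins 29 bases before its start. RefSeq promoters were at hand for 7 of the 10 genes, all but Nfkb1, Relb and Ccl2. Within 250 bases upstream, searched on both strands, 5 of these 7 (71.4%) held the NF-kB consensus, against 8.23% of 27025 genes. Tnfaip3 and Nfkb2 were the others with a match, and these letters were not found in the windows of Birc3 and Icam1. The Icam1 window ended at base 21015939, ahead of the annotated gene start at 21015985, and the bases between were not searched. The AP-1 motif TGANTCA was found in 2 of the 7 (28.6%), against 7.82% of genes. The genes were chosen by name as NF-kB genes, so their share is a description and not a result of these data. A match describes letters in a window and does not show that a factor binds there.

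Ccl2 (ENSMUSG00000035385, chromosome 11, 82035571 to 82037453, plus strand) encodes MCP-1, a chemokine that draws monocytes through CCR2. Control replicates 1 to 3 stood at 4.53, 7.20 and 8.25 CPM and FAC replicates at 12.9, 14.8 and 12.9 CPM. The groups did not overlap, and Ccl2 rose by a log2 fold change of 1.02 (SE 0.225, adjusted p = 0.00319), a 2.03-fold difference. The related Cxcl10, which draws T cells and was read in the list of other targets, rose by 2.21 on the log2 scale (SE 0.198, adjusted p = 1.69e-07).

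**Figure D1:**
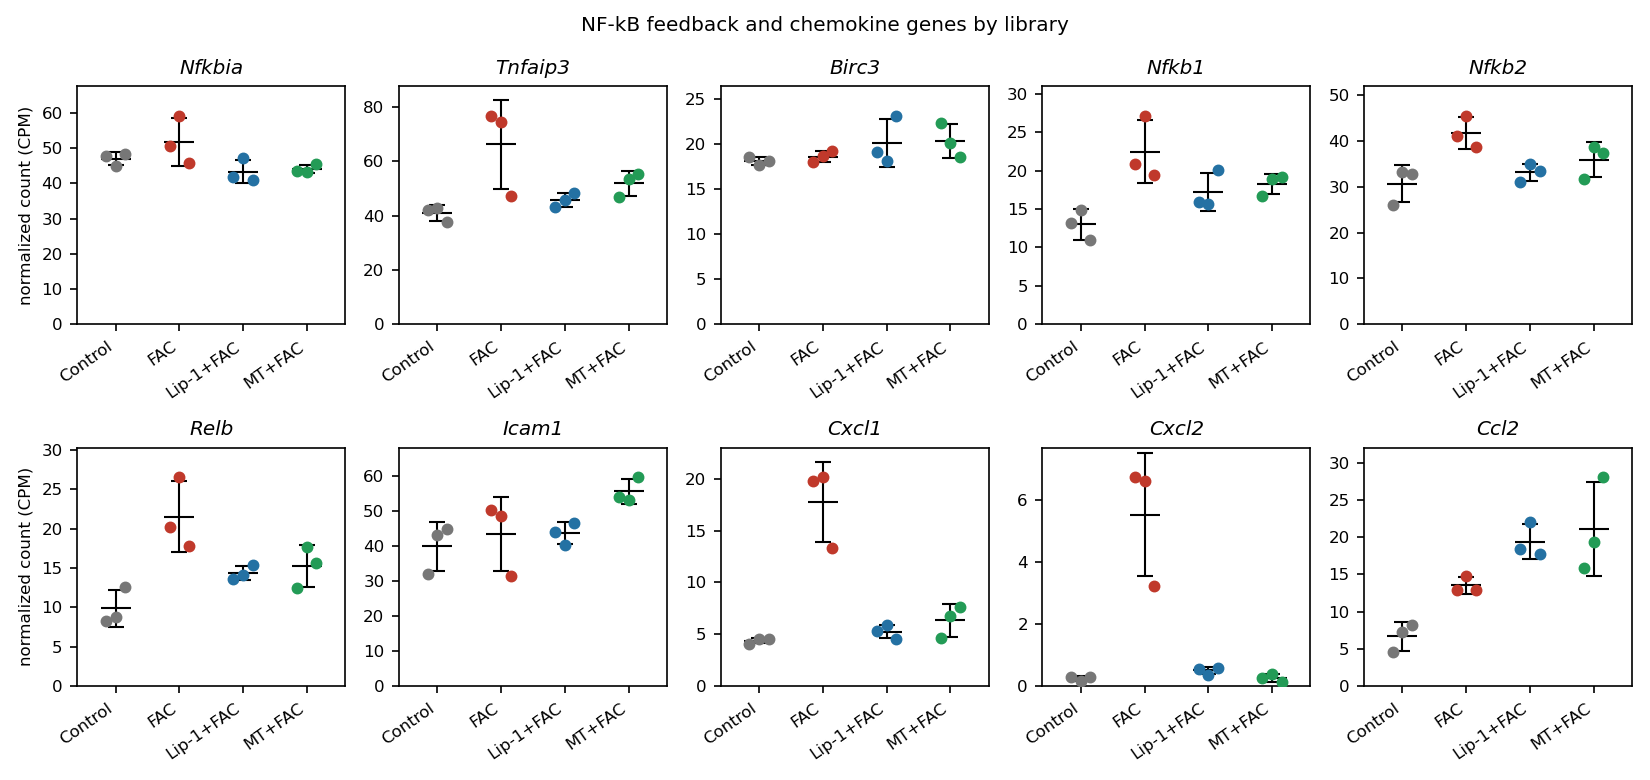
Normalized counts (CPM, linear axes from 0) of the 10 genes in each of 12 libraries, with the horizontal bar and whiskers giving the mean and SD of 3 libraries. Cxcl1 and Cxcl2 stood apart in the FAC libraries (13.4 to 20.2 and 3.23 to 6.72 CPM), whereas Ccl2 was higher still in the pretreated groups and Birc3 stayed between 17.7 and 23.1 CPM throughout.

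The subunit genes rose together with FAC. Relb (ENSMUSG00000002983, chromosome 7, 19606217 to 19629438, minus strand) encodes a subunit of the alternative NF-kB pathway. It stood at 8.24, 8.74 and 12.5 CPM in control and at 20.2, 26.5 and 17.8 CPM in FAC libraries, with no overlap (log2 fold change 1.14, SE 0.177, adjusted p = 0.000128). Nfkb1 (ENSMUSG00000028163, chromosome 3, 135584655 to 135691547, minus strand) encodes p105, the precursor of p50. Its levels were 13.2, 14.9 and 10.9 CPM in control and 20.8, 27.1 and 19.4 CPM with FAC, again without overlap (log2 fold change 0.79, SE 0.142, adjusted p = 0.000306). Nfkb2 (ENSMUSG00000025225, chromosome 19, 46304320 to 46312385, plus strand) encodes p100, the precursor of p52, which pairs with RELB. It rose from 26.0, 33.2 and 32.7 CPM to 41.0, 45.4 and 38.7 CPM, by 0.45 on the log2 scale (SE 0.102, adjusted p = 0.00224). FAC replicate 2 was the highest library for all 3 of these genes. Rela, which encodes the p65 subunit, did not pass the test, at 290 CPM in control and 310 CPM in FAC libraries on average (log2 fold change 0.10, SE 0.0502, adjusted p = 0.138).

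Among the brakes, Tnfaip3 rose and Nfkbia did not pass the test. Tnfaip3 (ENSMUSG00000019850, chromosome 10, 19000910 to 19015657, minus strand) encodes A20, which removes and edits the ubiquitin chains that carry the signal. It stood at 42.2, 42.9 and 37.6 CPM in control and at 76.8, 74.7 and 47.4 CPM with FAC. FAC replicate 3 lay close above the controls and the other FAC libraries far above them (log2 fold change 0.70, SE 0.149, adjusted p = 0.00266). Nfkbia (ENSMUSG00000021025, chromosome 12, 55489410 to 55492647, minus strand) encodes IkB-alpha, the inhibitor that holds the dimers in the cytoplasm. Its levels were 47.8, 44.9 and 48.2 CPM in control and 50.7, 59.1 and 45.6 CPM with FAC. The groups overlapped, and the difference did not pass the test (log2 fold change 0.15, SE 0.0868, adjusted p = 0.204), although it did without FAC replicate 3 (0.23, adjusted p = 0.0467). Birc3 (ENSMUSG00000032000, chromosome 9, 7848699 to 7873186, minus strand) encodes cIAP2, a ubiquitin ligase that protects cells from death. It was the steadiest gene, with means between 18.1 and 20.3 CPM in the 4 groups, and was called in none of 6 comparisons. The neighbouring Birc2, which encodes cIAP1 and lies 11635 bases away, fell with FAC by 0.47 on the log2 scale (adjusted p = 0.000139).

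Icam1 (ENSMUSG00000037405, chromosome 9, 21015985 to 21028817, plus strand) encodes an adhesion molecule that leukocytes bind. It stood at 31.9, 43.1 and 44.9 CPM in control and at 50.3, 48.6 and 31.3 CPM with FAC. FAC replicate 3 lay below all controls, and the difference did not pass the test (log2 fold change 0.12, SE 0.168, adjusted p = 0.613). Reads in the 11.7% of exonic bases that Icam1 shares with a gene on the other strand are not counted in an unstranded column, and the same holds for 18.1% of Nfkb2. Counting from the stranded columns changed no call of either gene.

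With liproxstatin-1 before FAC, 7 of the 10 genes were lower than with FAC alone and none was higher. Cxcl2 and Cxcl1 fell most, and Nfkbia, Tnfaip3, Nfkb1, Nfkb2 and Relb fell by smaller amounts. Ccl2 was the exception among the chemokine genes: its 3 values were all above those of FAC. Of all tested genes 39.9% were called, 19.2% as lower and 20.7% as higher. Libraries of the groups were fully separated for 5 of the 10 genes, 4 lower and 1 higher, which is close to the 50.8% of all tested genes. The median log2 fold change was -0.37 over the 10 genes and 0.00063 over all genes. This comparison and the preceding one share the FAC libraries, so a FAC library that is high by chance raises the one and lowers the other.

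Cxcl1 stood at 5.28, 5.90 and 4.57 CPM in Lip-1+FAC replicates 1 to 3, and fell by 1.76 on the log2 scale (SE 0.186, adjusted p = 1.08e-06). Cxcl2 held 15, 10 and 14 counts (0.546, 0.357 and 0.592 CPM) and fell by 3.48 on the log2 scale (SE 0.354, adjusted p = 6e-07). For both chemokine genes every Lip-1+FAC library lay below every FAC library. Ccl2 stood at 18.4, 22.1 and 17.8 CPM, above all FAC libraries. Its log2 fold change of 0.52 (SE 0.21, adjusted p = 0.0677) did not pass the test, but passed with DESeq2 (adjusted p = 0.0274) and without the filter on low counts (adjusted p = 0.000338).

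The smaller falls lost their calls in some alternatives. Relb stood at 13.5, 14.2 and 15.4 CPM, below all FAC libraries (log2 fold change -0.59, SE 0.172, adjusted p = 0.0123). Nfkb2 stood at 31.0, 34.9 and 33.3 CPM, also below all FAC libraries (log2 fold change -0.34, SE 0.102, adjusted p = 0.0136). Tnfaip3 (43.3, 45.9 and 48.6 CPM), Nfkb1 (15.9, 15.7 and 20.1 CPM) and Nfkbia (41.8, 47.0 and 41.0 CPM) overlapped with the FAC libraries. Their log2 fold changes were -0.53 (SE 0.148, adjusted p = 0.0122), -0.39 (SE 0.14, adjusted p = 0.0331) and -0.26 (SE 0.0869, adjusted p = 0.0221). Without FAC replicate 2, the combined library, only Cxcl1 and Cxcl2 were called, and without Lip-1+FAC replicate 1 there were 4 calls. Nfkbia also lost its call without Lip-1+FAC replicate 3 (-0.22), Nfkb1 without Lip-1+FAC replicate 2 (-0.33) and Tnfaip3 without FAC replicate 1 (-0.41). Tnfaip3 lost it too in a fit of the 6 compared libraries (-0.54, adjusted p = 0.05002), and Nfkb1 after thinning to the shallowest library (-0.35, adjusted p = 0.0507). Without FAC replicate 2 the log2 fold change was -0.22 for Nfkb1, -0.15 for Nfkbia, -0.40 for Relb, -0.27 for Nfkb2 and -0.43 for Tnfaip3. Birc3 (0.11, adjusted p = 0.406) and Icam1 (0.00, adjusted p = 0.989) did not pass the test.

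With Mito-TEMPO before FAC, 4 of the 10 genes were lower than with FAC alone and 1 was higher. Cxcl2, Cxcl1, Relb and Nfkbia fell and Ccl2 rose. Of all tested genes 40.9% were called, 19.7% as lower and 21.2% as higher. Full separation of the libraries was seen for 7 of the 10 genes, 5 lower and 2 higher, against 52.9% of all tested genes. The median log2 fold change was -0.27 over the 10 genes and -0.0011 over all genes, and the FAC libraries are again shared with the other comparisons.

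Cxcl1 stood at 4.59, 6.77 and 7.64 CPM in MT+FAC replicates 1 to 3, and fell by 1.50 on the log2 scale (SE 0.182, adjusted p = 6.12e-06). Cxcl2 held 8, 12 and 3 counts (0.250, 0.383 and 0.130 CPM) and fell by 4.38 on the log2 scale (SE 0.382, adjusted p = 1.74e-07). Every MT+FAC library lay below every FAC library for both. Ccl2 stood at 15.8, 19.3 and 28.1 CPM, above all FAC libraries and widely spread, and rose by 0.63 on the log2 scale (SE 0.21, adjusted p = 0.0296). Without MT+FAC replicate 3 the Ccl2 difference was 0.37 and was no longer called (adjusted p = 0.123), and it also lost its call without FAC replicate 1 (0.58, adjusted p = 0.0958) or 3 (0.60, adjusted p = 0.0823).

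Relb stood at 12.4, 17.7 and 15.6 CPM and Nfkbia at 43.4, 43.3 and 45.5 CPM, both below all FAC libraries. Their log2 fold changes were -0.51 (SE 0.171, adjusted p = 0.0269) and -0.24 (SE 0.0867, adjusted p = 0.0352). Both calls were fragile. Relb lost its call without FAC replicate 2 (-0.32), MT+FAC replicate 1 (-0.38) or MT+FAC replicate 3 (-0.52). Nfkbia lost it without FAC replicate 1 (-0.26) or 2 (-0.13), without MT+FAC replicate 1 (-0.23), 2 (-0.24) or 3 (-0.26), and after thinning (-0.23). Tnfaip3 stood at 46.8, 53.5 and 55.6 CPM, between control and the 2 higher FAC libraries, and did not pass the test (log2 fold change -0.36, adjusted p = 0.0705). It passed with DESeq2 (adjusted p = 0.0282) and without FAC replicate 3 (-0.54, adjusted p = 0.000134). Nfkb1 (16.7, 18.9 and 19.1 CPM) and Nfkb2 (31.6, 38.7 and 37.3 CPM) did not pass it either, with log2 fold changes of -0.31 (adjusted p = 0.0879) and -0.22 (adjusted p = 0.0903). Nfkb1 did pass without the filter (adjusted p = 0.0384) and without FAC replicate 3 (-0.40, adjusted p = 0.0435). Icam1 (54.0, 53.3 and 59.7 CPM) lay above all FAC libraries but did not pass the test (0.35, SE 0.166, adjusted p = 0.113), which it did without the filter (adjusted p = 0.0126). Birc3 (22.3, 20.1 and 18.6 CPM) overlapped with FAC (0.13, adjusted p = 0.327). Of the 5 calls, 3 were left without FAC replicate 1, FAC replicate 2 or MT+FAC replicate 1, and 2 without MT+FAC replicate 3. With no filter on low counts there were 8.

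**Figure D2:**
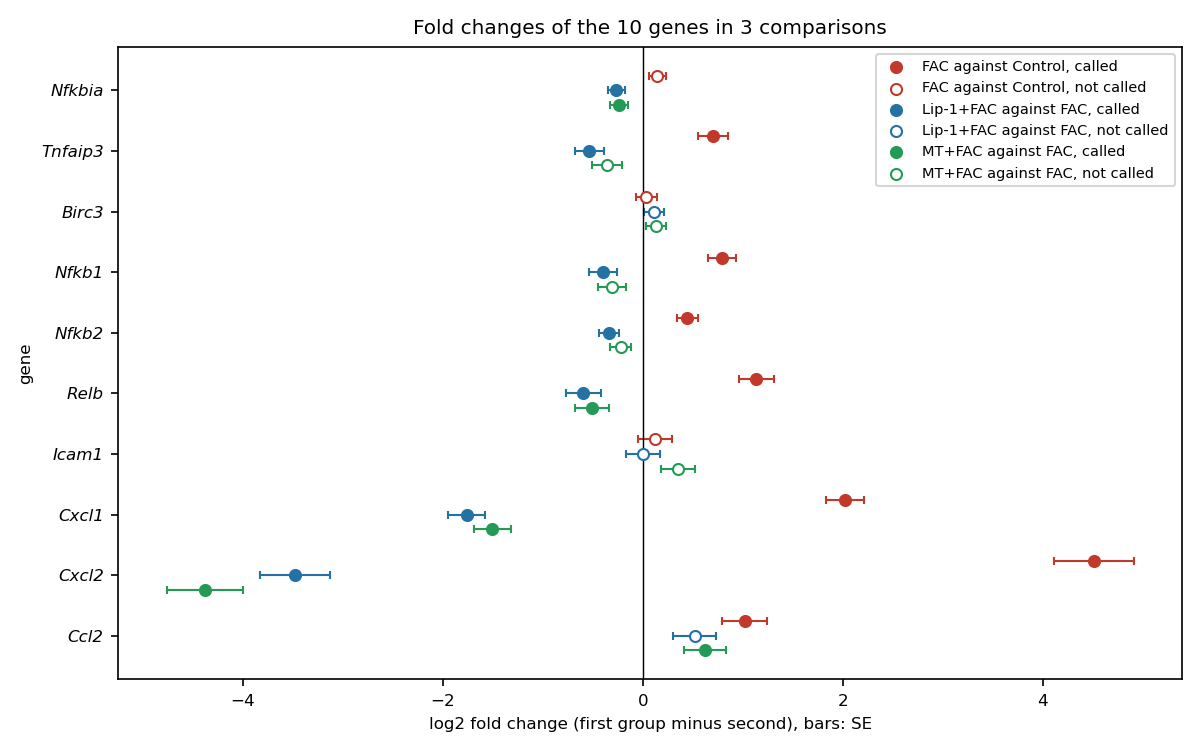
Log2 fold changes of the 10 genes (points) with their SE (bars) in 3 comparisons, filled where the gene was called and open where it was not. Cxcl1 and Cxcl2 have the widest departures in all 3 comparisons, from -4.38 to 4.51, and Ccl2 lies above 0 in each (1.02, 0.52 and 0.63).

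The pretreated groups were not told apart by any of the 10 genes. In MT+FAC against Lip-1+FAC, edgeR called 0 of the 10, with 0 at an unadjusted p under 0.05. Of all tested genes it called 1.34%, 0.465% as higher and 0.879% as lower. DESeq2 called 0 of the 10 as well, beside 465 of all tested genes. Libraries were fully separated for 1 of the 10 genes, Icam1, against 19.8% of all tested genes. The widest difference was that of Cxcl2 (-0.90, 95% interval -1.89 to 0.086), which rests on 3 to 15 counts per library. For Icam1, MT+FAC replicates (54.0, 53.3 and 59.7 CPM) lay above all Lip-1+FAC replicates (44.0, 40.4 and 46.7 CPM). Its difference was 0.35 (95% interval -0.017 to 0.714), called only in a fit on those 6 libraries alone (adjusted p = 0.0327). The interval was -0.15 to 0.67 for Cxcl1 and -0.34 to 0.56 for Ccl2, so differences of these sizes between the pretreatments are not excluded. The narrowest interval, that of Nfkbia, ran from -0.16 to 0.21.

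Set against control, each pretreated group had 3 of the 10 genes higher and none lower: Ccl2, Relb and Nfkb1. Ccl2 rose by 1.54 (SE 0.225, adjusted p = 0.000206) with Lip-1+FAC and by 1.65 (SE 0.225, adjusted p = 0.000308) with MT+FAC. In both, all 3 libraries lay above all controls. Relb rose by 0.54 (adjusted p = 0.0329) and 0.63 (adjusted p = 0.0219), and Nfkb1 by 0.40 (adjusted p = 0.0443) and 0.49 (adjusted p = 0.0236). Of all tested genes, 15.4% were called higher and 14.8% lower with Lip-1+FAC (30.2% in either direction). With MT+FAC, 9.71% were called higher and 10.1% lower (19.8% in either direction). Libraries were fully separated for 6 of the 10 genes in each comparison, all higher than control, against 43.3% of tested genes with Lip-1+FAC and 38.2% with MT+FAC. Cxcl1 did not pass the test (0.26, adjusted p = 0.346, and 0.52, adjusted p = 0.0714), nor did Cxcl2 (1.03, adjusted p = 0.122, and 0.13, adjusted p = 0.889). In MT+FAC against control, Cxcl1 did pass with DESeq2 (adjusted p = 0.0403), without the filter, after thinning and without MT+FAC replicate 1 (0.71, adjusted p = 0.0204). Icam1 did not pass there (0.48, adjusted p = 0.0677), but did with DESeq2 (adjusted p = 0.00901) and in 3 other alternatives. Tnfaip3 did not pass either (0.34, adjusted p = 0.128), but did without the filter (adjusted p = 0.000843) and in a fit of those 6 libraries (adjusted p = 0.0134). The control libraries are shared by these comparisons, and the calls of Relb and Nfkb1 did not survive every alternative. Relb lost its call in both without control replicate 1 (0.44 and 0.52) and without control replicate 2 (0.47 and 0.55), and Nfkb1 without control replicate 1 (0.42 and 0.50) or 3 (0.29 and 0.38). Removing other libraries did the same. Relb lost its call in Lip-1+FAC against control without Lip-1+FAC replicate 1, 2 or 3 (0.59, 0.56 and 0.49), and Nfkb1 without replicate 3 (0.28). Nfkb1 lost it there also with upper-quartile scaling (0.38, adjusted p = 0.0551) and in a fit of the 6 compared libraries (0.40, adjusted p = 0.0544). In MT+FAC against control both lost it without MT+FAC replicate 2 or 3, at 0.51 and 0.61 for Relb and 0.46 for Nfkb1 in either case. Ccl2 kept its call in every alternative.

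Scaled to exon length, the order of the 10 genes moved with treatment. Nfkbia was the highest in each group, at 29.2 CPM per kb in control and 32.2 with FAC. In control, Ccl2 was the fourth at 5.85 ± 1.69 CPM per kb (SD, n = 3), within its spread of Nfkb2 at 6.68 and Tnfaip3 at 5.66. Ccl2 was the second in the other groups, at 11.9, 17.1 and 18.5 CPM per kb with FAC, Lip-1+FAC and MT+FAC. Cxcl1 was the eighth in control (2.34 CPM per kb), the fourth with FAC (9.48) and again the eighth in the pretreated groups (2.80 and 3.38). With FAC it did not differ beyond the spread from Icam1 (9.96), Tnfaip3 (9.17) or Nfkb2 (9.10). These ranks hold for the unstranded column, which misses part of Icam1. With the strand columns summed, Icam1 was the second in control (11.6) and with FAC (12.4), above Ccl2 with FAC (10.8), and the third in the pretreated groups, while Cxcl1 was the fifth with FAC. Cxcl2 was the lowest gene in control (0.117) and in both pretreated groups, and the ninth with FAC (2.67), above Nfkb1 (1.86). That last order was within the spread, and in FAC replicate 3 Cxcl2 (1.56) lay below Nfkb1 (1.61).

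**Figure D3:**
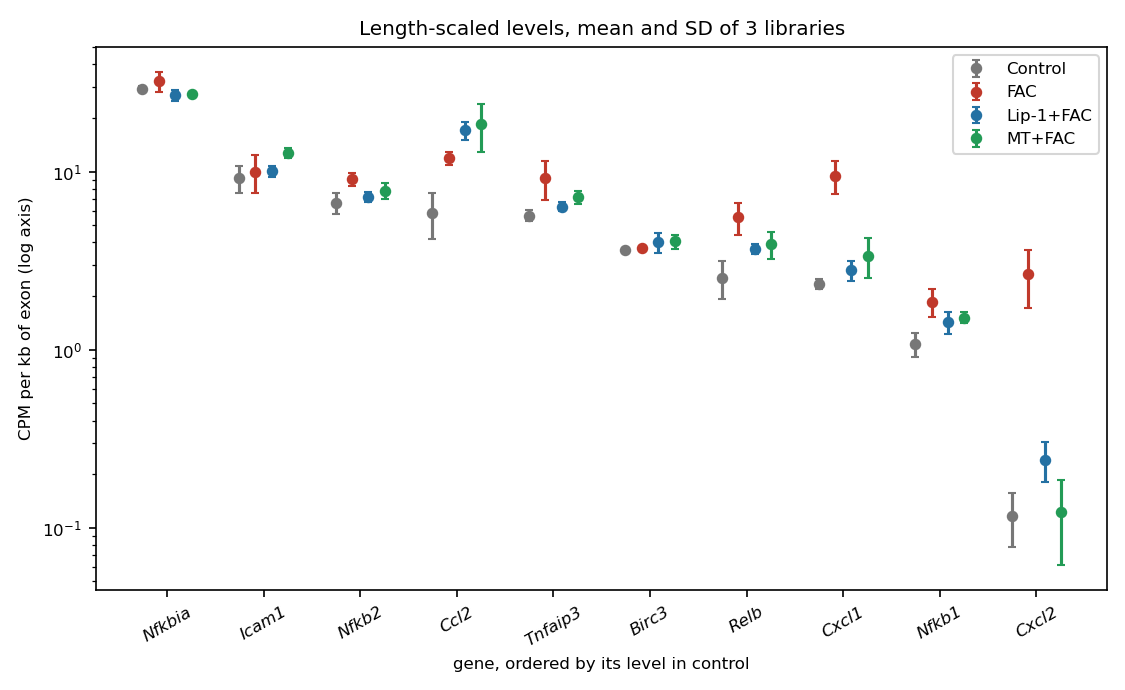
Length-scaled level (CPM per kb of exon, log axis) of the 10 genes, ordered by their control level, as the mean and SD of 3 libraries in each group. Cxcl2 spans the widest range, from 0.117 in control to 2.67 with FAC, while Nfkbia stays near 30 in all groups.

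Ccl2 and Cxcl1 parted under the pretreatments, a pair singled out after their values were seen and therefore described without a test. The ratio of Ccl2 to Cxcl1 per kb of exon was 1.84, 2.61 and 2.99 in control replicates 1 to 3. It was 1.07, 1.21 and 1.59 in the FAC replicates, below each control. In the Lip-1+FAC replicates it was 5.75, 6.16 and 6.41, and in the MT+FAC replicates 5.67, 4.69 and 6.05. Each pretreated library thus had a ratio above each control and each FAC library, and the pretreated groups overlapped with each other.

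**Figure D4:**
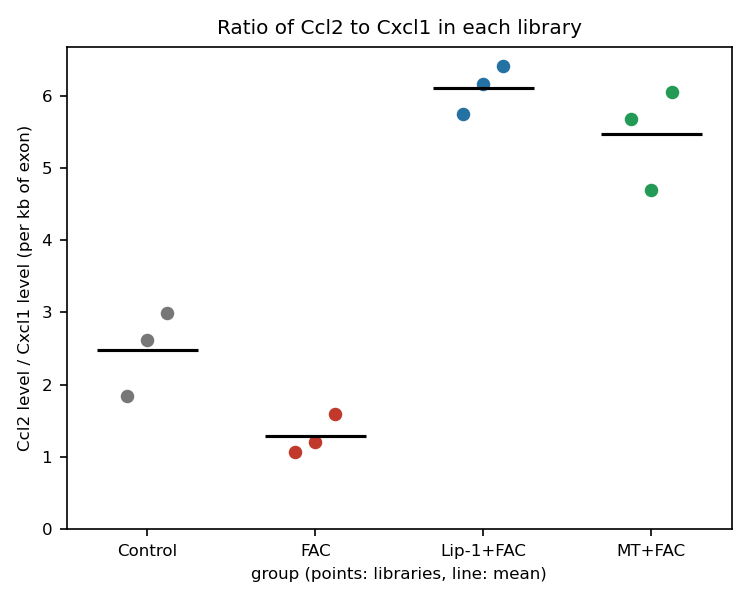
Ratio of the Ccl2 level to the Cxcl1 level (both per kb of exon) in each of 12 libraries, with the group mean as a line. The FAC libraries lie lowest (1.07 to 1.59) and the pretreated libraries highest (4.69 to 6.41).

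Markers of other liver cells and measures of the libraries moved with the groups, and their part in these results was not tested. The 10 Kupffer cell and macrophage markers summed to 228 to 261 CPM in control, 293 to 326 with FAC and 122 to 180 in the pretreated libraries. Nearly all of it was Cd68, a lysosomal protein gene that other cells also express (226 and 295 CPM in control and FAC). Without Cd68 the sum was 10.6 to 16.1 CPM in control, 13.7 to 15.3 with FAC, 13.5 to 16.4 with Lip-1+FAC and 12.3 to 19.95 with MT+FAC, so these ranges overlapped. Within it, Clec4f fell with FAC (1.10 to 0.500 CPM on average) and rose with MT+FAC against FAC (to 1.17 CPM), and Lyz2 rose with both pretreatments against FAC (2.84 to 4.38 and 4.37 CPM). The endothelial sum was 37.1 to 39.2 CPM without pretreatment and 28.6 to 33.1 CPM with it, a fall carried by Stab2 (26.5 CPM with FAC, 17.9 with Lip-1+FAC and 19.2 with MT+FAC). Fcgr2b, also on that list, rose with both pretreatments against FAC (0.968 CPM with FAC, 2.09 and 1.90), and no other endothelial marker was called against FAC. The stellate cell sum was 20.9 to 22.2 CPM with FAC and 10.2 to 17.3 CPM in the other groups, a difference carried by Reln (7.46 CPM in control and 16.1 with FAC). Without Reln it was 5.68 to 9.65 CPM in control and 4.82 to 6.30 with FAC, and Dcn fell by 0.60 on the log2 scale. Cholangiocyte markers moved as Cxcl1 and Cxcl2 did: Sox9, Krt19, Krt7 and Epcam, 4 of 5, rose with FAC and fell with each pretreatment against FAC. Without Spp1 their sum was 20.9 to 23.8 CPM in control, 58.0 to 74.3 with FAC, 12.4 to 15.6 with Lip-1+FAC and 17.1 to 20.1 with MT+FAC. Sox9 made up most of it (17.4 CPM in control and 53.4 with FAC), while Krt7 and Epcam stood at 0.975 and 1.26 CPM with FAC. Spp1 did not pass the test with FAC and rose with both pretreatments (43.6 CPM with FAC, 101 with Lip-1+FAC and 103 with MT+FAC). Reads in no annotated gene made up 2.92% to 3.14% in FAC libraries and 2.27% to 2.56% elsewhere. The gene-assigned share was 75.8% to 77.8% in FAC, 78.0% to 79.8% in control and 80.4% to 81.2% in pretreated libraries. Mitochondrially encoded counts made up 0.954% to 1.23% in control and FAC libraries and 0.639% to 0.798% in pretreated ones.

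The rest of the pathway was read from 100 other genes in 3 lists, of which 77 were tested. The lists were core signalling machinery (36 genes), receptors and their ligands (32) and further known targets (32). With FAC 22 rose and 13 fell, so 35 of 77 passed against 36.6% of all genes. The core list moved in both directions, with 11 rises and 4 falls of 34 tested (median 0.047). Its calls leaned upward, where 17.5% of all tested genes rose and 19.1% fell. Tab3, an adaptor of the kinase TAK1, rose by 0.58, and Map3k14, the kinase NIK of the alternative pathway, by 0.55. Nfkbib, which encodes the inhibitor IkB-beta, rose by 0.47 (adjusted p = 0.0019), whereas the kinase gene Ikbke fell by 0.49.

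Receptors and ligands had 4 rises and 6 falls with FAC among 22 tested (median -0.13), against the same 17.5% and 19.1% of all genes. Cd14, the co-receptor for lipopolysaccharide, rose from a mean of 16.0 to 33.0 CPM (log2 fold change 1.05, adjusted p = 2.8e-06). The interleukin-1 receptor gene Il1r1 fell by 1.20 and the flagellin receptor gene Tlr5 by 0.90. Genes of cytokines that commonly switch the pathway on were too low to test: Tnf had at most 5 counts in a library, Il1a at most 6 and Il1b at most 4. Il6, a known target of the pathway, had at most 1. Transcripts of the chemokine receptors were near absent too, with 0 counts of Cxcr1 and Cxcr2 and at most 4 of Ccr2.

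Of the other targets, 7 rose and 3 fell with FAC among 21 tested (median 0.39), beside 17.5% and 19.1% of all genes. After Cxcl10 the widest rise was that of Junb, an AP-1 subunit gene, by 1.02, while Cxcl12 fell by 0.94. With Lip-1+FAC against FAC, 4 of these targets rose and 10 fell (median -0.66), and with MT+FAC 2 rose and 11 fell (median -0.34). Over all tested genes, 20.7% rose and 19.2% fell with Lip-1+FAC, and 21.2% and 19.7% with MT+FAC. With Lip-1+FAC and MT+FAC in turn, Junb fell by 1.51 and 1.44, Cxcl10 by 1.48 and 1.84, and Cxcl9 by 2.02 and 1.50. The acute-phase gene Saa2 fell by 1.67 and 1.49, although its counts are uncertain because it belongs to a family of closely similar genes.

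In the same comparisons the core list had 7 rises and 6 falls with Lip-1+FAC (median 0.037) and 8 and 7 with MT+FAC (median 0.016). Those counts, of 34 tested, lie close to the 39.9% and 40.9% of all genes called in these comparisons. Nfkbib fell by 0.68 and 0.74, and Birc2 rose by 0.57 and 0.68. Ikbkg, the gene of the kinase complex's scaffold NEMO, rose by 0.56 in both. Receptors and ligands had 4 rises and 6 falls of 22 with each pretreatment, also close to those shares. The lipopeptide receptor gene Tlr2 rose by 2.21 and 2.08 and Il1r1 by 1.06 and 1.15, and Cd14 fell by 1.37 and 1.16. In MT+FAC against Lip-1+FAC, edgeR called none of the 77, beside 1.34% of all tested genes. DESeq2 called 4 of the pathway genes and a fit with no filter on low counts 3, beside 465 and 477 of all genes. The other alternatives called at most 1.

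**Figure D5:**
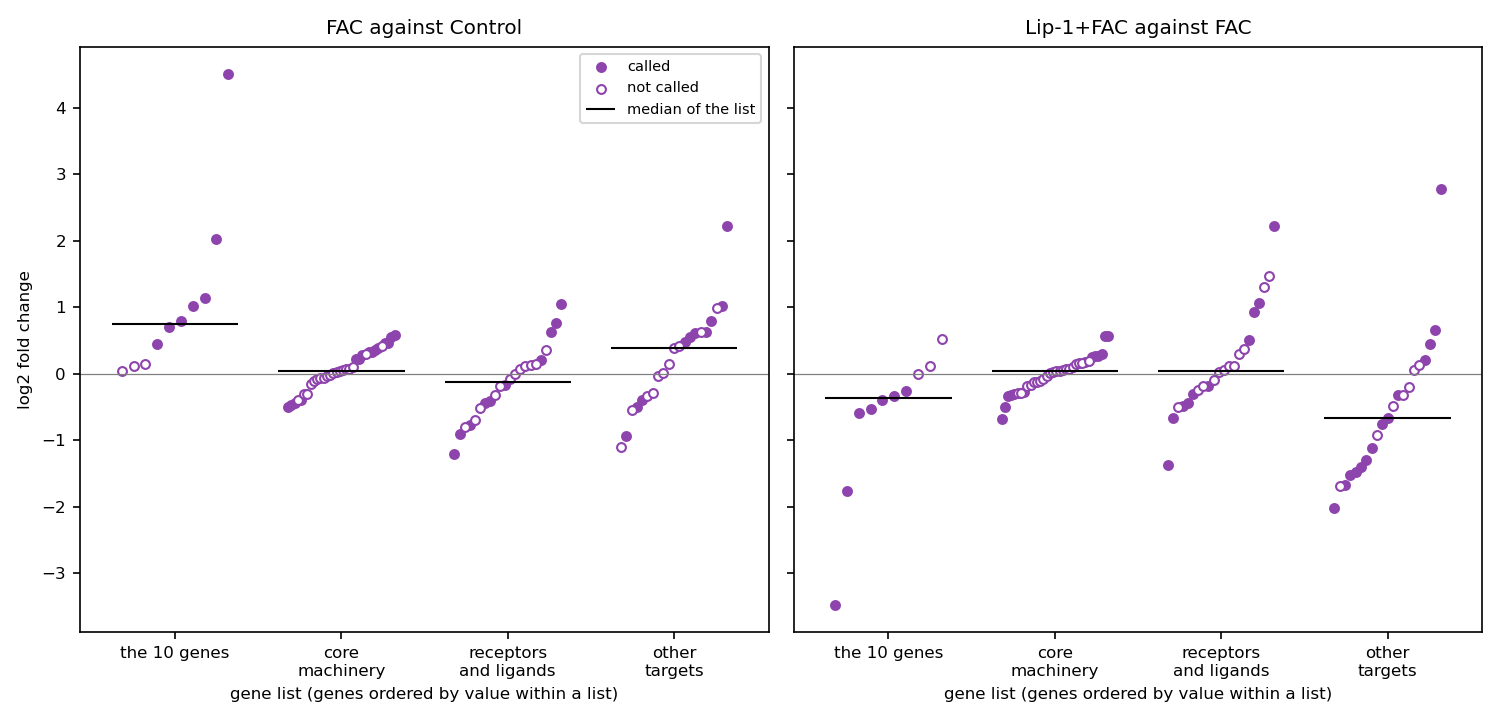
Log2 fold changes of the 10 genes and of the tested genes of 3 pathway lists, ordered by value within a list, in FAC against control and in Lip-1+FAC against FAC. Filled points were called and the bar is the median: 0.75 and -0.37 for the 10 genes, 0.39 and -0.66 for the other targets, and within 0.13 of 0 for the core machinery and the receptors and ligands.

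Across the 12 libraries, some of the 10 genes ran close together, which is a description that the group differences shape. Log2 levels correlated with Pearson's r = 0.898 for Nfkb2 and Relb and r = 0.896 for Cxcl1 and Cxcl2, the latter falling to 0.092 after group means were removed. Cxcl2 and Ccl2 had r = 0.041. Among 9129 genes with a mean of at least 5 CPM, the patterns most like that of Tnfaip3 were those of Usp36, Ranbp3 and Flii (r = 0.950, 0.945 and 0.942). Those most like Ccl2 were Itpripl2, Samd4 and Rmdn2 (0.959, 0.928 and 0.928), and those most like Nfkb2 were Ccn1, Mta2 and Epha2 (0.938, 0.910 and 0.908). For Icam1 they were Pknox1, Ciz1 and Anks3 (0.866, 0.837 and 0.802).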

How the data were processed

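Raw counts per gene in 12 libraries (3 per group) were used as deposited. Per the labels' protocols, cDNA was made with SMART-Seq v4 and libraries with Nextera XT, sequenced paired-end without mention of molecular identifiers, so counts are not independent molecules. The submitters' processing notes name STAR and GRCm38. The aligner version and annotation are not given in the sources used here. The unstranded column was used, and the 4 lines that name no gene stayed out (75.8% to 81.2% of reads were gene-assigned). Reads with several places in the genome are not counted, which lowers genes with similar copies. A search with blastn 2.17.0 found Birc3 and Gm7019 99.2% identical over 369 bases, Cxcl2 and Cxcl3 91.6% over 320, and Cxcl1 and Cxcl2 78.1% over 347.

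Symbols and coordinates came from GENCODE M21 (55227 of 55487 identifiers matched). Genes were tested in edgeR 4.0.16 by quasi-likelihood F tests (R 4.3.3, TMM, filterByExpr, 4 group means over all 12 libraries, robust), two-sided and adjusted by Benjamini-Hochberg over 13535 genes. The biological coefficient of variation was 9.71%. The SE was derived from the fold change and F. The 95% intervals use this SE and the t distribution at the fit's degrees of freedom for each gene. Pathway genes were named by a rule: per list and comparison, the 3 called genes with the largest change and a mean of at least 1 CPM. Others were named as parts of the pathway, after their values were seen. Likeness was Pearson's r of log2 CPM (prior count 2). Same-numbered replicates did not deviate together. Alternatives changed scaling, filter, tool (DESeq2 1.42.0), libraries in the fit, depth, counting column, a replicate block and each library in turn. The 10 genes, the pathway lists and the marker lists were chosen with earlier results of these data known.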

Additional observations from a re-analysis of the deposited data

How the results depend on the processing

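The 25 called differences of the 10 genes were recomputed in 372 alternatives: 329 kept the call and direction, 43 lost the call and none reversed. The 13 that kept both throughout were all 7 in FAC against control, Cxcl1 and Cxcl2 in each pretreated group against FAC, and Ccl2 in each against control. Where values changed, the cause was not tested. At a minimum mean of 5 CPM, Cxcl2 was no longer tested, which lowers the counts by its call.

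Leaving out each library in turn, calls among the 10 genes ran from 2 to 7 in Lip-1+FAC against FAC, 2 to 6 in MT+FAC against FAC, 1 to 2 in Lip-1+FAC against control and 1 to 4 in MT+FAC against control. With no filter on low counts 8 were called in MT+FAC against FAC and 6 in MT+FAC against control. The latter comparison gave 5 calls each with DESeq2, in a fit of the compared libraries alone, and after thinning to the shallowest library. Over all genes these settings gave 3161, 2681 and 2778 calls there. A fit of the compared libraries alone gave 1 call in MT+FAC against Lip-1+FAC. Over all genes, leaving out each library gave 4566 to 4990 calls in Lip-1+FAC against FAC, 4488 to 5112 in MT+FAC against FAC, 3233 to 3876 in Lip-1+FAC against control and 1794 to 2830 in MT+FAC against control, and no filter gave 5471 and 2939 in the comparisons of MT+FAC with FAC and control. In MT+FAC against Lip-1+FAC, 182 genes were called over all genes, against 477 with no filter, 465 with DESeq2, 312 in a fit of the compared libraries and 74 to 156 leaving out 1 library. Replicate numbers are shared between groups but did not pair the libraries: same-numbered deviations correlated at -0.25 to 0.16 and 4 of 12 libraries correlated best with their own number. With the number as a replicate block, 7, 8 and 6 of the 10 genes were called in FAC against control, Lip-1+FAC against FAC and MT+FAC against FAC, and 0, 3 and 3 in the other comparisons, beside 4863, 5278, 5488, 193, 3961 and 2553 of all genes. Ccl2 in Lip-1+FAC against FAC (0.52, adjusted p = 0.0256) and Nfkb2 in MT+FAC against FAC (-0.22, adjusted p = 0.0414) were called with the block.

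Values that changed sign had no call. For Icam1 in Lip-1+FAC against FAC the log2 fold change was -0.0050 with RLE scaling, -0.00076 with upper-quartile scaling, -0.015 at a mean of 5 CPM, -0.0019 with DESeq2, -0.0060 with only the compared libraries, and -0.18 to 0.12 leaving out 1 library. Leaving out 1 library, Icam1 ran from -0.0142 to 0.31 in FAC against control and from -0.0061 to 0.22 in Lip-1+FAC against control, Cxcl2 from -0.27 to 0.40 in MT+FAC against control, and Ikbkg from -0.13 to 0.0028 in FAC against control. In MT+FAC against Lip-1+FAC these ranges were -0.0135 to 0.0879 for Nfkbia, -0.0531 to 0.13 for Birc3 (-8.6e-05 with stranded columns), -0.0493 to 0.22 for Relb and -0.15 to 0.29 for Ccl2. Map3k14 ran from -0.12 to 0.12 in Lip-1+FAC against FAC (-0.000173 at a mean of 5 CPM, -0.0202 thinned) and from -0.11 to 0.14 in MT+FAC against FAC (-0.0188 thinned). Cxcl12 ran from -0.12 to 0.0772 in MT+FAC against FAC (0.0133 thinned).

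Libraries outside the FAC group held 3 to 15 counts of Cxcl2, which limits the precision of its fold changes.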
